A study of Canis lupus familiaris with 124 samples.

Results

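TihoDProAdcarc1508 and TihoDProAdcarc1511.1, called Adcarc1508 and Adcarc1511.1 below, are canine cell lines grown from the primary prostate adenocarcinomas (PAC) of different dogs, and their transcriptomes were compared with each other. All RNA-seq libraries labelled with either line were taken, which gave 3 libraries of each line, 6 of the 31 in the series. The series sequenced 8 cell lines and 9 tumor tissues, and each library was read on 4 lanes. Adcarc1508 came from patient 3, a neutered male mixed breed dog aged 11 years, and its libraries were made at passages 97, 105 and 106. Adcarc1511.1 came from patient 4, a neutered male Dobermann aged 6 years, and its libraries were made at passages 88, 94 and 95. Both were kept in Medium 199 with 10% fetal calf serum and were long past their isolation. Whether stromal cells remained in them was not tested. Each line stands for 1 dog, and its libraries are flasks of that line, so p-values measure only the spread between flasks. Dog, breed, age, passage and line cannot be told apart in this comparison.

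Prostate adenocarcinoma in dogs is aggressive and mostly grows without androgens, unlike early prostate cancer in men. The normal gland consists of luminal secretory cells and of basal cells. Its epithelium expresses transcription factors that mark its place along the body axis, such as HOXB13, and membrane proteins such as the protease TMPRSS2 and the prostate-specific membrane antigen encoded by FOLH1. The question addressed is how much of such a programme 2 lines with the same histological diagnosis share, and how far they differ.

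Summed expected counts ran from 15520660 to 19935282 over the 6 libraries (median 17776759), in which 15884 to 16799 genes were above 0. Levels are given as CPM (counts divided by the library's total and scaled to the same large total in each library) after adjustment by TMM factors, in the order of replicates 1, 2 and 3. A gene entered the test with at least 10 counts in every library of at least 1 line, and was called with an adjusted p of at most 0.01 and at least a 2-fold difference in edgeR's quasi-likelihood test. In replicate 3 of Adcarc1511.1, the shortest 1 of 5 length classes of genes lay a median of 0.20 above its line's mean on the log2 scale, and the longest class lay at -0.12. Calls that end without that library are named beside the gene.

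The 2 lines differed far more than the flasks of either line. Euclidean distances of log2 CPM ranged from 41.4 to 88.9 between libraries of the same line and from 164.1 to 190.1 between libraries of different lines, and 79.1% of the variance over the tested genes lay between the lines. The closest pair was replicates 2 and 3 of Adcarc1508, the most distant pair within a line was replicates 1 and 3 of Adcarc1511.1, and the ranges did not meet. Of 12517 genes tested, 1894 were called (15.1%), 1069 higher (8.54%) and 825 lower (6.59%) in Adcarc1511.1. The libraries of the lines did not overlap in 5644 of the tested genes (45.1%), including all 1894 called ones. The median log2 fold change over all tested genes was -0.02. Leaving out replicate 2 or 3 of Adcarc1508 brought the number of higher genes to 676 and 669, and that of lower genes to 643 and 616.

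**Figure D1:**
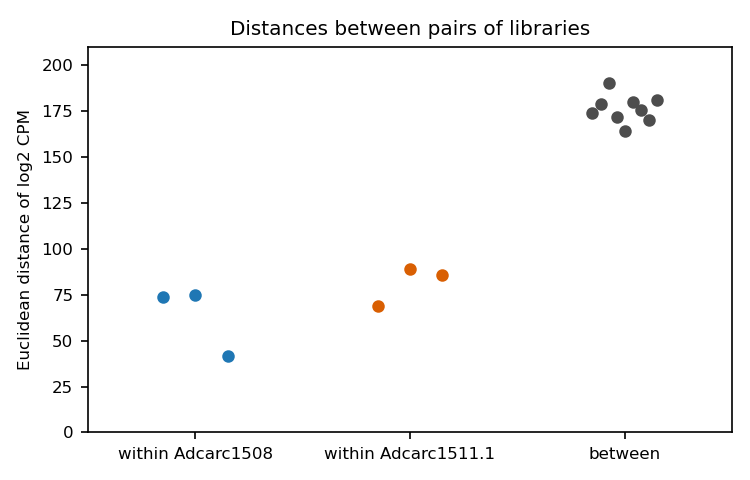
Euclidean distance of log2 CPM over the 12517 tested genes for each pair of libraries, with pairs of Adcarc1508, pairs of Adcarc1511.1 and pairs across the lines in separate columns. Each point is 1 pair. Pairs across the lines start at 164.1, and pairs within a line end at 88.9.

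The prostate and hormone genes differed in a mixed way: FOLH1 and GOLM1 were higher in Adcarc1511.1, and TMPRSS2, HOXB13, HNF4G and GSTP1 were higher in Adcarc1508. These 6 are the called members among 8 tested of 19 in the list, against 15.1% of all tested genes. HNF4G and AMACR were the members that entered the test through Adcarc1508 alone. The median log2 fold change of the tested members was -0.85, on the side of Adcarc1508.

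FOLH1, the prostate-specific membrane antigen, had 5.49, 2.28 and 4.40 CPM in Adcarc1508 and 297, 96.0 and 136 CPM in Adcarc1511.1. Every library of Adcarc1511.1 was far above every library of Adcarc1508, although its own flasks spread widely. The log2 fold change was 5.43 (SE 0.52), with an adjusted p of 6.32e-05. GOLM1, a Golgi membrane protein raised in human prostate cancer, had 28.7, 24.8 and 21.5 CPM in Adcarc1508 and 398, 223 and 422 CPM in Adcarc1511.1. It was therefore well expressed in both lines and higher in Adcarc1511.1, with a log2 fold change of 3.80 (SE 0.31) and an adjusted p of 2.53e-05.

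TMPRSS2, a membrane serine protease of prostate and other epithelia, ran the other way. It had 106, 40.2 and 59.0 CPM in Adcarc1508 and 9.45, 2.18 and 9.77 CPM in Adcarc1511.1. The lowest Adcarc1508 flask still exceeded the highest Adcarc1511.1 flask, and the log2 fold change was -3.27 (SE 0.56, adjusted p 0.00195). HOXB13, a homeobox factor of the prostate and the posterior body, had 55.3, 52.3 and 59.2 CPM against 12, 11.2 and 9.98 CPM. Its flasks hardly varied within a line, and it fell by 2.33 on the log2 scale from Adcarc1508 to Adcarc1511.1 (SE 0.23, adjusted p 8.04e-05). GSTP1, a glutathione transferase of detoxification, had 70.7, 70.4 and 106 CPM against 31.5, 25.2 and 43.6 CPM, with a log2 fold change of -1.30 (SE 0.28, adjusted p 0.00753). HNF4G, a nuclear receptor, was rare in both lines, with between 16 and 40 counts a library in Adcarc1508 and between 1 and 5 in Adcarc1511.1 (log2 fold change -2.70, SE 0.56, adjusted p 0.00593). The call of TMPRSS2 ended without replicate 3 of Adcarc1511.1 (adjusted p 0.0101). That of GSTP1 ended without any 1 library other than replicate 3 of Adcarc1511.1 (adjusted p between 0.0112 and 0.0411), and that of HNF4G without any 1 library other than replicate 2 of Adcarc1508 (between 0.0158 and 0.0199).

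Receptors of estrogen and progesterone were at the limit of detection in both lines. ESR1, the estrogen receptor alpha, had 3 counts in each Adcarc1508 library and 0 in Adcarc1511.1. PGR, the progesterone receptor, KLK2, a kallikrein of prostate secretion, and SPINK1, a secreted protease inhibitor, had 0 counts in all 6 libraries. A count of 0 allows a level of up to between 0.141 and 0.209 CPM in these libraries, counting error only. TP63, a basal cell factor, had at most 2 counts in any library. FASN, the fatty acid synthase, was abundant in both lines, at 590, 1060 and 1124 CPM in Adcarc1508 and 915, 780 and 419 CPM in Adcarc1511.1, and its difference did not pass the test (log2 fold change -0.39, SE 0.35, adjusted p 0.44).

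**Figure D2:**
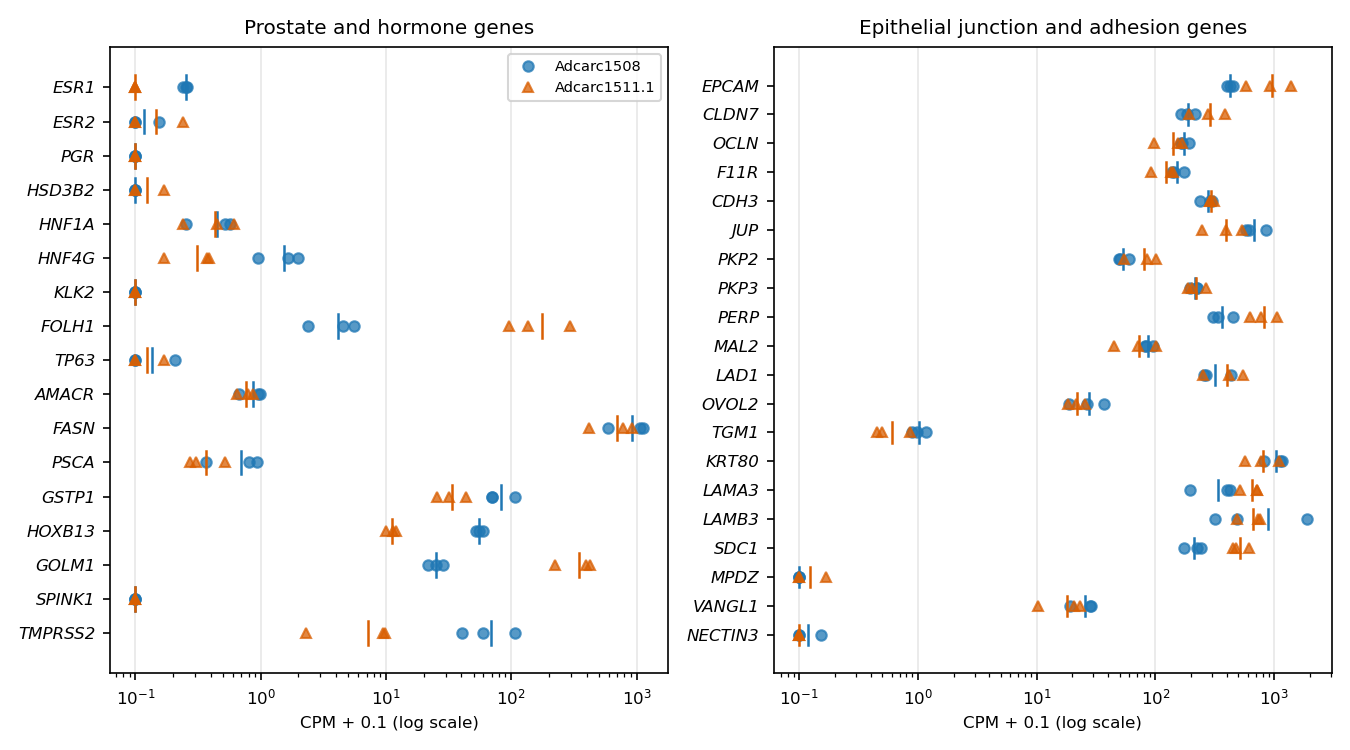
CPM + 0.1 on a log scale of 17 prostate and hormone genes (left) and the 20 epithelial junction and adhesion genes (right). Circles are the 3 Adcarc1508 libraries, triangles are the 3 Adcarc1511.1 libraries and vertical bars are means. FOLH1, GOLM1, TMPRSS2 and HOXB13 separate the lines by wide gaps, whereas most epithelial genes lie at like levels.

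Most epithelial junction and adhesion genes were expressed in both lines. Of 20, 18 were tested and 1 was called, against 15.1% of all tested genes, and MPDZ and NECTIN3 had at most 1 count in any library. TGM1 was low in both lines, and the list's median log2 fold change was -0.11. Their summed level ranged from 4325 to 7086 CPM in Adcarc1508 and from 5414 to 7038 CPM in Adcarc1511.1. SDC1, a heparan sulfate proteoglycan of epithelial surfaces, was the called member. It had 173, 243 and 222 CPM in Adcarc1508 and 452, 474 and 613 CPM in Adcarc1511.1 (log2 fold change 1.27, SE 0.24, adjusted p 0.00366). The call was lost without any 1 library other than replicates 1 and 3 of Adcarc1511.1 (adjusted p between 0.0107 and 0.0177). EPCAM, the epithelial cell adhesion molecule, had 425, 403 and 452 CPM against 921, 583 and 1395 CPM. Its libraries did not overlap, but the spread in Adcarc1511.1 left an adjusted p of 0.0198 at a log2 fold change of 1.18 (SE 0.31). The replicate number was also set as a block, a pairing taken from the same data, since the labels do not say what the number marks. Calls added by the block, here and below, carry this limit. With the block EPCAM was called (log2 fold change 1.09, adjusted p 0.00832), as was PERP, a desmosome protein (1.16, adjusted p 0.00618, against 1.18 and 0.0109 without the block). The laminin chain LAMA3, a member of this list too, was the other gene called with the block (1.01, adjusted p 0.00652, against 0.94 and 0.0515).

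Markers of other cell types were checked as well. Leukocyte markers summed to at most 7.19 CPM in any library. Of the 15, 7 had 0 counts in all 6 libraries, and the myeloid markers SPI1 and CSF1R were among these. The 14 fibroblast markers summed to between 350 and 503 CPM in Adcarc1508 and between 1576 and 2034 CPM in Adcarc1511.1. Most of this was COL5A2, and LOX and FBLN1 were expressed too. COL1A1, COL1A2, COL3A1 and DCN, of the same list, had at most 6 counts in any library. The 7 endothelial markers summed to between 26.1 and 33.6 CPM and between 36.3 and 55.6 CPM. FLT4, a receptor of lymphatic endothelium, made up most of it, at 25.2, 31.4 and 23.8 CPM in Adcarc1508 and 55.0, 35.6 and 35.9 CPM in Adcarc1511.1, while KDR, TEK and CD93 had at most 4 counts. The part of such cells in the differences between the lines was not tested.

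Of the transcription factors of lineage and patterning, 10 were called among 20 tested of 31, against 15.1% of all tested genes. In Adcarc1511.1, 7 of them were lower and 3 higher, against 6.59% and 8.54% of all tested genes. Of the 20, 5 entered the test through Adcarc1508 alone and 1 through Adcarc1511.1 alone.

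Besides HOXB13 above, 3 HOX factors, which set position along the body axis, were called. HOXB7 had 18.6, 15.9 and 24.4 CPM against 0.966, 1.78 and 1.26 CPM (log2 fold change -3.86, SE 0.36, adjusted p 5.42e-05). HOXB4 had between 11 and 24 counts a library in Adcarc1508 and 0 in every Adcarc1511.1 library, so it was at least 4.88-fold lower against a floor of 3 counts per library. HOXC6 had 1.97, 1.17 and 0.984 CPM against 0.207, 0.172 and 0.279 CPM (log2 fold change -2.63, SE 0.50, adjusted p 0.00355), and the call ended without replicate 1 of Adcarc1508 or without any replicate of Adcarc1511.1 (adjusted p between 0.0101 and 0.0174). HOXB4 and HOXC6 entered the test through Adcarc1508 alone. HOXA2 had at most 2 counts in any library and was not tested. ARNT2, a partner of bHLH-PAS factors, had between 28 and 34 counts a library in Adcarc1508 and 1 count over the 3 libraries of Adcarc1511.1, a ratio of 70.7 between the summed levels with a 95% counting interval from 12.4 to 2823.

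In the other direction, NR1H4, the bile acid receptor FXR, had 10.1, 2.70 and 3.47 CPM in Adcarc1508 and 74.8, 46.0 and 56.7 CPM in Adcarc1511.1. The groups were widely apart (log2 fold change 3.44, SE 0.49, adjusted p 0.000684). PAX9, a paired box factor of pharyngeal and foregut derivatives, had 7.09, 6.89 and 5.44 CPM against 38.6, 29.3 and 15.3 CPM (log2 fold change 2.10, SE 0.36, adjusted p 0.00207), and its call ended without replicate 3 of Adcarc1508 (adjusted p 0.0111). HHEX, a homeobox factor of endoderm, had 2.25, 3.76 and 3.68 CPM against 15.2, 16.4 and 22.3 CPM (log2 fold change 2.47, SE 0.33, adjusted p 0.000466).

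Only 899 of the 12517 tested genes and 137 of the 1894 called ones had a symbol, so the ranking below leaves most called genes out. Called genes with a symbol were ranked by the ratio of mean CPM, with a line of at most 3 counts in every library set to a floor of 3 counts per library. The highest in Adcarc1511.1 were, in this order, TMEM47, AVPR2, GNAI1, CCDC80, SULF1, GLIPR1L2, PALD1, FOLH1, PRKX and ITGB2. They hold a junction protein, a hormone receptor, a G protein and secreted matrix proteins. TMEM47, a claudin-related protein of cell junctions, had 0.563, 0.583 and 0.155 CPM in Adcarc1508 and 655, 635 and 733 CPM in Adcarc1511.1. It went from a few counts to an abundant transcript, with a log2 fold change of 10.57 (SE 0.46, adjusted p 1.25e-06). AVPR2, the vasopressin receptor through which kidney tubules regulate water uptake, had at most 3 counts in an Adcarc1508 library and 89.8, 104 and 146 CPM in Adcarc1511.1 (log2 fold change 10.28, SE 0.45, adjusted p 1.25e-06).

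GNAI1, an inhibitory G protein subunit, had 1 count over the 3 Adcarc1508 libraries and 67.8, 8.45 and 31.1 CPM in Adcarc1511.1. The ratio of the summed levels was 2028, with a 95% counting interval from 364 to 80168, and its flasks varied more than those of the other genes in this group. CCDC80, a secreted matrix protein, had 0.610, 0.530 and 0.984 CPM against 115, 50.7 and 96.1 CPM (log2 fold change 6.93, SE 0.44, adjusted p 6.38e-06). SULF1, an extracellular enzyme that trims sulfate groups from heparan sulfate, had 0.0469, 0.636 and 0.207 CPM against 27.7, 52.8 and 19.6 CPM (log2 fold change 6.81, SE 0.69, adjusted p 8.52e-05). SULF1 and the heparan sulfate proteoglycan SDC1 were thus both higher in Adcarc1511.1.

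GLIPR1L2, a member of the GLIPR1 family, had 0 counts in every Adcarc1508 library and between 117 and 208 in those of Adcarc1511.1, at least 70.6-fold higher. PALD1, a protein with phosphatase-like domains, had a log2 fold change of 5.72 (SE 0.30) and PRKX, an X-linked kinase activated by cAMP, one of 4.95 (SE 0.41). PRKX was expressed in both lines, at 11.6, 23.7 and 10.1 CPM in Adcarc1508 and 554, 519 and 333 CPM in Adcarc1511.1. ITGB2, the beta chain of leukocyte integrins, had 1 count over the Adcarc1508 libraries and 5.52, 1.03 and 6.84 CPM in Adcarc1511.1 (ratio 252, 95% counting interval from 44.8 to 10014). It was the only leukocyte marker tested, and CSF1R, SPI1 and TYROBP were at 0 in the same libraries.

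At the other end stood SASH1, CD74, UBE2E3, LOXL2, TMEM74, TRPM2, ACER2, KIF7 and MFAP2. Of these, ACER2, an alkaline ceramidase of the Golgi that releases sphingosine from ceramide, was by far the most abundant in Adcarc1508, at 1135, 1003 and 1119 CPM against 28.3, 30.9 and 31.4 CPM. Both lines expressed it at a steady level, and it fell by 5.17 on the log2 scale (SE 0.25, adjusted p 1.57e-06). SASH1, a scaffold protein, had 49.1, 30.8 and 34.4 CPM against 0.207, 0 and 0.279 CPM (log2 fold change -7.89, SE 0.60, adjusted p 1.43e-05). UBE2E3, a ubiquitin-conjugating enzyme, had between 191 and 313 counts a library in Adcarc1508 and 0 in every Adcarc1511.1 library, at least 68.0-fold lower.

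CD74, the invariant chain that guides peptide loading of class II molecules, had 24.5, 4.77 and 11.1 CPM in Adcarc1508 and 1 count over the 3 Adcarc1511.1 libraries (ratio 642, 95% counting interval from 115 to 25379). Its partner DLA-DRA had 2.68, 0.318 and 0.570 CPM in Adcarc1508, in the same order of flasks, and 0 counts in Adcarc1511.1. DLA-DRA did not reach the count minimum, and reads of DLA genes can be divided between similar copies. LOXL2 and MFAP2, which crosslink collagen and build microfibrils, had log2 fold changes of -5.76 (SE 0.72) and -5.00 (SE 0.67). KIF7, a kinesin of the primary cilium and Hedgehog signaling, stood at 19.2, 37.7 and 40.8 CPM in Adcarc1508 against 0.897, 1.03 and 0.977 CPM. TRPM2, a cation channel, and TMEM74, a lysosomal membrane protein, had log2 fold changes of -5.23 (SE 0.51) and -5.19 (SE 0.52). The calls of all 19 genes held with each library left out in turn.

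**Figure D3:**
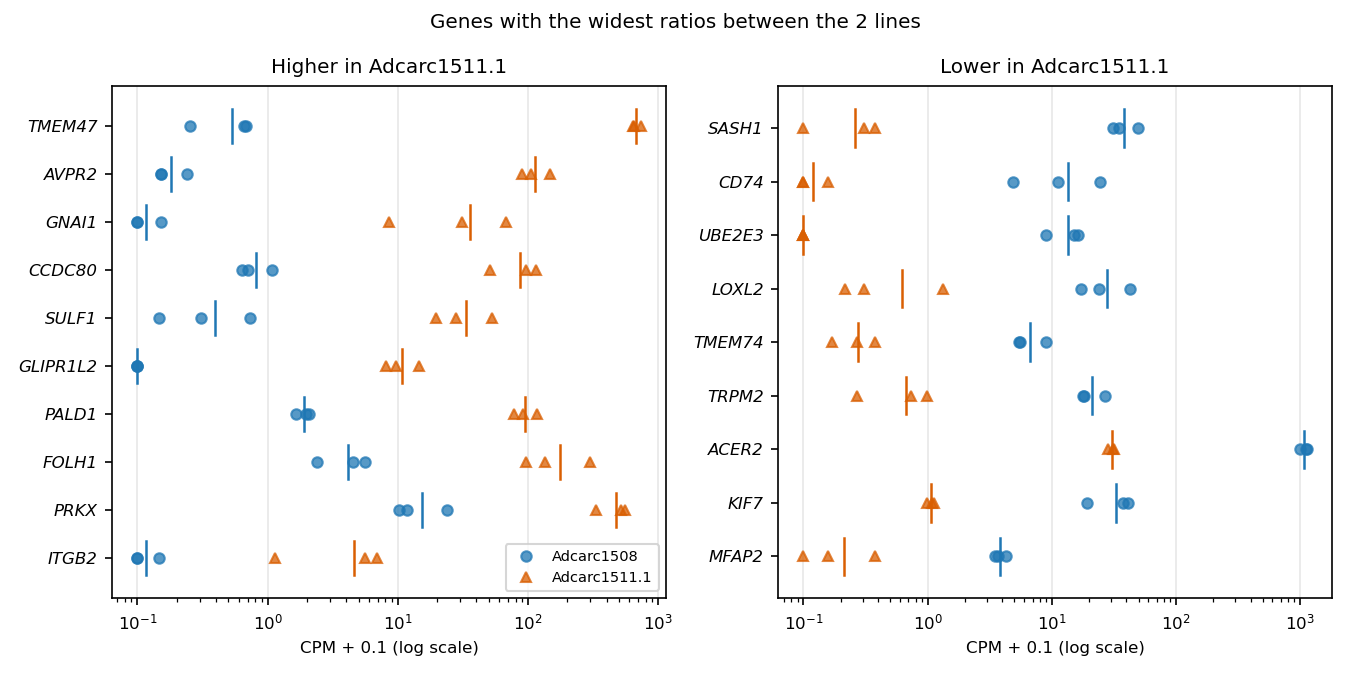
CPM + 0.1 on a log scale of 10 genes with the highest (left) and 9 with the lowest (right) ratio of mean CPM among called genes with a symbol, ranked with a floor of 3 counts per library for a line near 0. Circles are Adcarc1508 libraries, triangles are Adcarc1511.1 libraries and vertical bars are means. In every gene shown the libraries of the lines lie apart, and ACER2 and PRKX are expressed in both.

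Many differences were between presence and near absence. Of the genes lower in Adcarc1511.1, 236 had at most 3 counts in every library of that line, and of the higher ones 142 had at most 3 counts in every library of Adcarc1508. The widest ratios among genes without a symbol belonged to ENSCAFG00000008582, with 0.329, 0.106 and 0.0518 CPM in Adcarc1508 and 1114, 1376 and 468 CPM in Adcarc1511.1, and to ENSCAFG00000032430, with 159, 222 and 172 CPM against 0.0690, 0.287 and 0.140 CPM.

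Among growth factor and kinase genes, 3 of 19 tested were called, near the background of 15.1%. FGF2, a mitogen of the fibroblast growth factor family, had 1.03, 1.22 and 1.19 CPM in Adcarc1508 and 9.93, 5.35 and 3.07 CPM in Adcarc1511.1 (log2 fold change 2.41, SE 0.47, adjusted p 0.00395). SPRY2, an inhibitor of receptor kinase signaling, had 6.43, 6.09 and 6.32 CPM against 15.2, 14.3 and 14 CPM (log2 fold change 1.21, SE 0.26, adjusted p 0.00726). BCR, a GTPase regulator, was lower in Adcarc1511.1 (log2 fold change -2.37, SE 0.41, adjusted p 0.00218). The FGF2 call ended without any Adcarc1508 library or without replicate 1 of Adcarc1511.1 (adjusted p between 0.0120 and 0.0164), and the SPRY2 call without any 1 library other than replicate 3 of Adcarc1511.1 (between 0.0177 and 0.0442). IRS1, the insulin receptor substrate, missed the threshold (log2 fold change 1.89, adjusted p 0.0105) and passed it with the block (1.73, adjusted p 0.00605).

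Of the cytokine and JAK-STAT genes, 10 of 18 were tested, 2 of them through Adcarc1508 alone, and 3 were called lower in Adcarc1511.1, against 6.59% of all tested genes. They are a pair of receptor chains that signal through STAT3, and STAT3 itself. OSMR, the oncostatin M receptor, had 76.7, 177 and 155 CPM in Adcarc1508 and 24.8, 39.7 and 28.7 CPM in Adcarc1511.1 (log2 fold change -2.13, SE 0.34, adjusted p 0.00135). IL22RA1, a chain of the epithelial receptor for interleukin 22, had 8.40, 2.86 and 4.25 CPM against 1.03, 0.517 and 0.908 CPM (log2 fold change -2.66, SE 0.51, adjusted p 0.00361). STAT3 had 143, 131 and 111 CPM against 64.0, 51.3 and 54.7 CPM (log2 fold change -1.18, SE 0.22, adjusted p 0.00328). The ligands OSM, IL6 and IL10 had 0 counts in all 6 libraries.

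JAK1, JAK2, TYK2 and STAT6, kinases and factors of the same pathway, were expressed in both lines and not called. The OSMR call ended without replicate 3 of Adcarc1511.1 (adjusted p 0.0107), the IL22RA1 call without replicate 2 or 3 of that line (0.0166 and 0.0161), and the STAT3 call without replicate 1 or 2 of Adcarc1508 or replicate 2 of Adcarc1511.1 (between 0.0105 and 0.0182). In the innate immunity list, CD74 and CD59 were called among 8 tested of 15, against 15.1% of all tested genes. CD59, an inhibitor of complement lysis, had 2.49, 8.74 and 6.79 CPM in Adcarc1508 and 29.7, 26.5 and 39.7 CPM in Adcarc1511.1 (log2 fold change 2.41, SE 0.43, adjusted p 0.00258, and 0.0148 without replicate 3 of Adcarc1511.1).

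COL5A2, LOX and ACTA2, of the fibroblast list, were higher in Adcarc1511.1. COL5A2, a fibrillar collagen chain, had 338, 419 and 275 CPM in Adcarc1508 and 1476, 1796 and 1321 CPM in Adcarc1511.1 (log2 fold change 2.16, SE 0.26, adjusted p 0.000258). LOX, which crosslinks collagen, had 17.5, 54.2 and 45.8 CPM against 333, 219 and 241 CPM (log2 fold change 2.75, SE 0.40, adjusted p 0.000789), opposite to its relative LOXL2. ACTA2, smooth muscle actin, was rare, with at most 3 counts in an Adcarc1508 library and 3.04, 1.03 and 1.05 CPM in Adcarc1511.1 (log2 fold change 4.23, SE 0.69, adjusted p 0.00148). These 3 are the called members among 4 tested fibroblast markers of 14, against 15.1% of all tested genes, and ACTA2 entered the test through Adcarc1511.1 alone.

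TGFBR1, the type I receptor of TGF-beta, had 80.3, 96.2 and 80.9 CPM in Adcarc1508 and 334, 389 and 366 CPM in Adcarc1511.1. It was narrow within each line and the only called gene among 16 tested of 22 in the TGF-beta, Wnt and Notch list, against 15.1% of all tested genes (log2 fold change 2.08, SE 0.22, adjusted p 0.000105). SMAD3, which carries the signal of that receptor, had 214, 139 and 108 CPM against 93.4, 57.5 and 33.4 CPM, and missed the threshold (log2 fold change -1.32, adjusted p 0.0299) but passed it with the replicate number as a block (-1.38, adjusted p 0.000752).

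ITGB2, which entered the test through Adcarc1511.1 alone, was the called gene among 10 tested integrins, against 15.1% of all tested genes. With the block, ITGA2, a collagen receptor chain, and ITGB6, an epithelial chain that activates latent TGF-beta, were called too, in opposite directions (log2 fold change 2.04, adjusted p 0.000492, and -1.51, adjusted p 0.000729, against adjusted p of 0.0112 and 0.0168 without it). ITGA2 had 498, 348 and 130 CPM in Adcarc1508 and 1294, 1423 and 856 CPM in Adcarc1511.1. In the basement membrane laminin list, 0 of 4 tested genes were called by edgeR without the block and 0 by DESeq2, and 1 had an unadjusted p under 0.05. VWF, an endothelial marker, was low in both lines, at 5.16, 1.96 and 2.02 CPM against 0.345, 0.460 and 0.419 CPM (log2 fold change -2.88, SE 0.52, adjusted p 0.00282), and its call ended without any 1 replicate of Adcarc1511.1 (between 0.0118 and 0.0147).

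Lipid genes gave 3 called members of 14 tested (2 of the 14 through Adcarc1508 alone, background 15.1%), and 5 with the block, which added STARD4, a sterol carrier (log2 fold change 1.36, adjusted p 0.00212, against 0.0137 without it), and SPTSSB, a subunit of the enzyme that starts sphingolipid synthesis (-2.33, adjusted p 0.00180, against 0.0253). LIPG, endothelial lipase, had 188, 337 and 286 CPM in Adcarc1508 and 52.1, 35.4 and 29.5 CPM in Adcarc1511.1 (log2 fold change -2.79, SE 0.32, adjusted p 0.000170). PTGS1, which makes prostaglandin precursors, had between 39 and 73 counts a library against at most 1 (ratio 59.0, 95% counting interval from 16.1 to 492). ACSL4, which activates polyunsaturated fatty acids, had 72.2, 100.1 and 91.7 CPM against 203, 361 and 328 CPM (log2 fold change 1.76, SE 0.28, adjusted p 0.00121).

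The cell cycle genes gave 1 call among 18 tested, against the background of 15.1%. PLK1, a mitotic kinase, had 56.5, 128 and 181 CPM in Adcarc1508 and 40.0, 39.2 and 29.5 CPM in Adcarc1511.1 (log2 fold change -1.75, SE 0.38, adjusted p 0.00779), and the call ended without any 1 library other than replicate 1 of Adcarc1508 (between 0.0193 and 0.0391). GSTP1 was the called member among 9 tested drug handling and survival genes (background 15.1%), to which the block added NT5E, a nucleotidase of the cell surface (log2 fold change 1.60, adjusted p 0.00269, against 0.0354 without it). Of 10 housekeeping genes, 0 were called by edgeR or by DESeq2, and 4 had an unadjusted p under 0.05. Over all lists, 243 different genes were followed, 160 were tested and 33 were called (15 higher, 18 lower). That is 20.6% of the tested members, against 15.1% of all tested genes (8.54% higher and 6.59% lower). Of the 160, 13 entered the test through Adcarc1508 alone and 3 through Adcarc1511.1 alone.

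**Figure D4:**
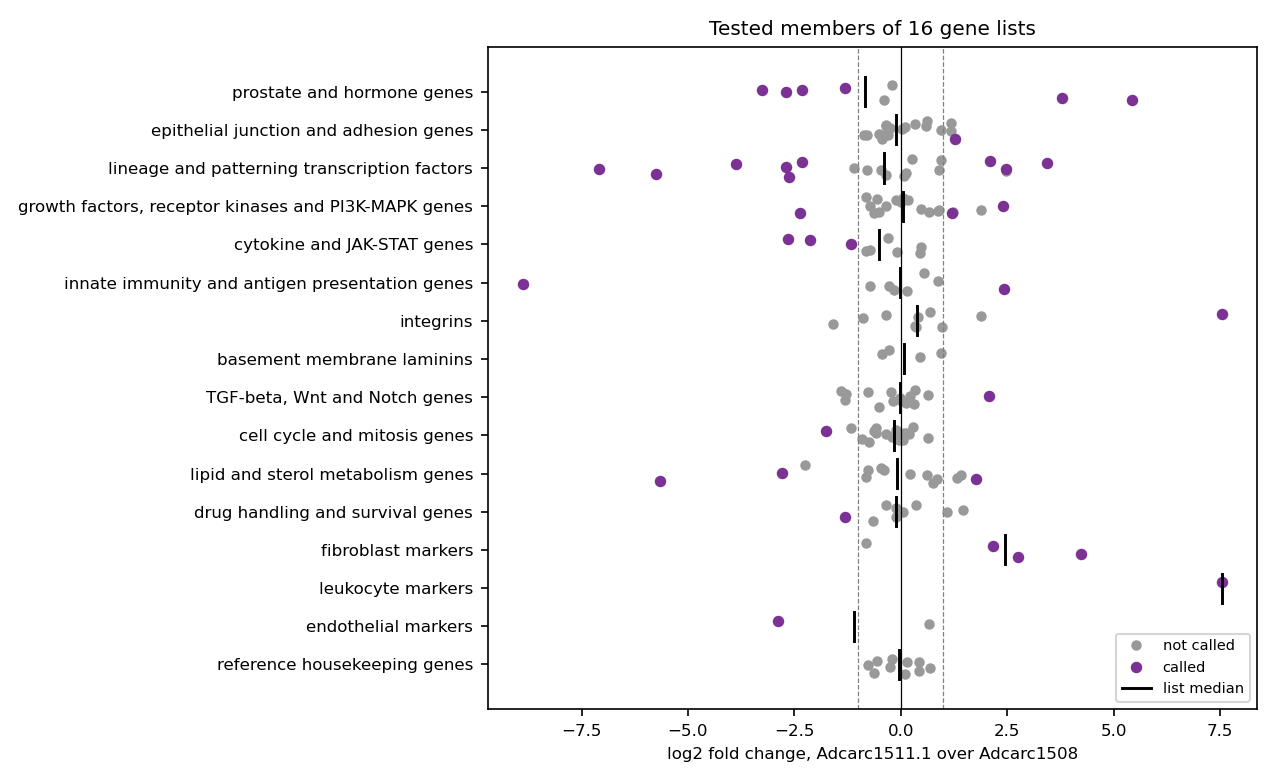
Log2 fold change of Adcarc1511.1 over Adcarc1508 for tested members of 16 gene lists. Purple points are called, grey points are not, black bars are list medians and dashed lines mark a 2-fold difference; values of HOXB4, ARNT2, CD74, ITGB2 and PTGS1 are fitted estimates on very few counts in 1 line. The prostate list has 6 called points of 8, and the housekeeping genes lie within the dashed lines.

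Adcarc1511.1 comes from the dog that also gave Metadcarc1511.2 and Metadcarc1511.3, lines of 2 lymph node metastases, while Adcarc0846 is a PAC line of another dog. None of these shares a library with the comparison above. Adcarc0846, from a dog aged 6 years, was sequenced at passages 447 and 448, and the metastasis lines at passages from 68 to 87. Of the 1069 genes higher in Adcarc1511.1, 340 (31.8%) were also at least 2-fold higher in both metastasis lines than in Adcarc0846, against 11.7% of all tested genes, and 68 (6.36%) were at least 2-fold lower, against 7.13%. Of the 825 lower genes, 208 (25.2%) were at least 2-fold lower in both metastasis lines, against the same 7.13%. Another 120 (14.5%) were at least 2-fold higher, against the same 11.7%. Most genes that separate the lines therefore did not show the same 2-fold difference between the metastasis lines and Adcarc0846. The dog of Adcarc1508 gave no other line, so Adcarc0846 of an unrelated dog took its place. The sample numbers of Adcarc0846 are also carried by libraries of another cell line, so that it may have been sequenced apart from the metastasis lines. Run, passage and dog cannot be told apart in these shares. Called genes were picked for a difference between lines and are unlike all tested genes. No conclusion is therefore drawn from the gap between their shares.

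The 236 genes with at most 3 counts in every Adcarc1511.1 library entered the test through Adcarc1508 alone. Of these, 107 (45.3%) were at or under 3 counts in every library of both metastasis lines, and 108 (45.8%) in both libraries of Adcarc0846. At least 10 counts in every library were reached by 26 (11.0%) in both metastasis lines and by 92 (39.0%) in Adcarc0846. The 142 genes near absence in Adcarc1508 entered the test through Adcarc1511.1 alone. Of these, 65 (45.8%) had at least 10 counts in every library of both metastasis lines and 62 (43.7%) in Adcarc0846, against 90.8% and 92.2% of all tested genes. At most 3 counts were found for 17 of the 142 in both metastasis lines and for 69 (48.6%) in Adcarc0846, against 1.29% and 3.52%. Genes picked for near absence in 1 line are unlike all tested genes, so no conclusion is drawn from the gap to those shares. The metastasis lines had 6 libraries and Adcarc0846 had 2, and these differences were not tested.

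The genes of the widest ratios among called genes with a symbol followed several patterns over the 5 lines. Levels are given here as mean TPM, transcript levels scaled to transcript length. UBE2E3 stood at 13.1 TPM in Adcarc1508 and 12.6 in Adcarc0846, but at 0, 0.0558 and 0.0183 in Adcarc1511.1, Metadcarc1511.2 and Metadcarc1511.3, the lines of the Dobermann. SASH1, LOXL2, TMEM74, KIF7 and MFAP2 had the same order, with at least 3.52 TPM in both other dogs and at most 1.37 TPM in each line of this dog. Conversely, CCDC80 stood at 51.1, 63.6 and 102 TPM in the 3 lines of the Dobermann and at 0.479 and 0.216 in Adcarc1508 and Adcarc0846, and GLIPR1L2, SULF1 and PALD1 had that order too. Lines of transitional cell carcinoma (TCC) shared some of these levels. CCDC80 stood at 0.0175, 19.9 and 46.1 TPM in TCC0840, TCC1506 and TCC1509, and SULF1 at 0, 81.7 and 177. LOXL2 was low in all of these lines (1.89, 0.13 and 0.265 TPM), and MFAP2 was low in TCC1506 and TCC1509 (0.185 and 0.18). UBE2E3, SASH1, TMEM74 and KIF7 stood at 3.745 TPM or more in each, and GLIPR1L2 and PALD1 at 0.723 or less.

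Within the PAC lines compared here, other genes set a single line apart. ACER2 stood at 330 TPM in Adcarc1508 and between 7.95 and 28.8 in the other 4 lines. AVPR2 was near 0 in Adcarc1508 (0.0950 TPM) and stood at 111, 54.6, 51.5 and 60.2 TPM in Adcarc1511.1, Metadcarc1511.2, Metadcarc1511.3 and Adcarc0846, and PRKX was likewise lowest in Adcarc1508 (4.43 TPM against at least 72.2). FOLH1 stood at 89.0 TPM in Adcarc1511.1 but at 4.03 and 0.0675 in the metastasis lines of the same dog, and at 2.34 and 3.69 in Adcarc1508 and Adcarc0846. GNAI1 behaved alike, at 16.9 TPM in Adcarc1511.1 and at most 0.803 in the other 4 lines. TMEM47 was shared by Adcarc1511.1 and Metadcarc1511.2 (209 and 165 TPM) and low in Metadcarc1511.3 (1.36 TPM). TRPM2 stood at 7.84 TPM in Adcarc1508 and at most 0.659 in the other 4 lines. ITGB2 was highest in Adcarc0846 (8.46 TPM, against 2.07 in Adcarc1511.1). CD74 stood at 26.8 TPM in Adcarc1508 and was higher in Metadcarc1511.2 (4.64 TPM) than in Adcarc0846 (2.91 TPM). In the TCC lines, GNAI1 stood at 88.8 TPM in TCC1506 and 5.28 in TCC0840, and FOLH1 at 27.3 and 27.7. Both were near 0 in TCC1509 (0.04 and 0.01 TPM). AVPR2 was near 0 in TCC1506 and TCC1509 (0.0608 and 0.0458 TPM) but stood at 72.4 TPM in TCC0840. PRKX stood at 0, 3.02 and 39.2 TPM in TCC0840, TCC1506 and TCC1509. ACER2 reached at most 23.3 TPM in these TCC lines. CD74 reached 466 TPM and ITGB2 8.15 TPM in TCC0840, and TRPM2 reached 28.0 TPM in TCC1506. Of the prostate genes above, HOXB13 stood at 28.3, 43.7 and 44.7 TPM in TCC0840, TCC1506 and TCC1509. It stood at 127, 21.9 and 2.14 TPM in Adcarc1508, Adcarc1511.1 and Adcarc0846. TMPRSS2 stood at 54.9, 0.68 and 0 TPM in the TCC lines and at 23.3 TPM in Adcarc1508. Neither HOXB13 nor TMPRSS2 set the PAC lines apart from the TCC lines.

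**Figure D5:**
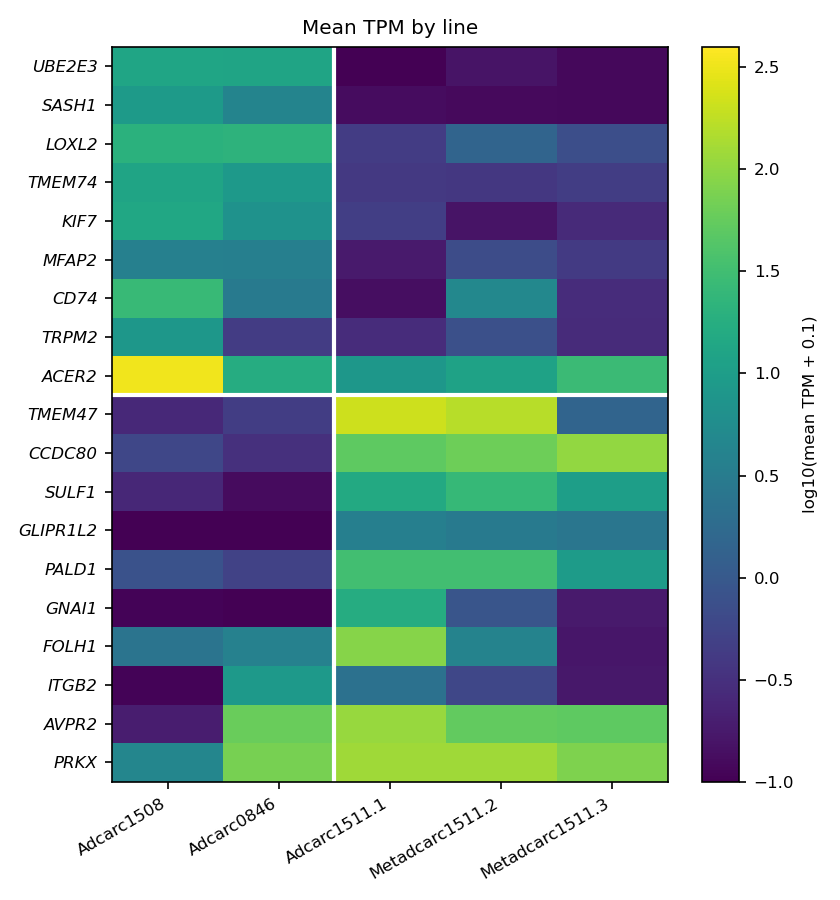
Mean TPM, as log10 of TPM + 0.1, of 19 genes of the widest ratios among called genes with a symbol, in 5 PAC lines. Left of the white line are Adcarc1508 and Adcarc0846, each from another dog, and right of it the 3 lines of the Dobermann; genes above the horizontal line were lower in Adcarc1511.1 and those below it higher. The rows from UBE2E3 to MFAP2 are dark in all 3 lines of the Dobermann, and FOLH1 and GNAI1 are brightest in Adcarc1511.1 alone.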

How the data were processed

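RNA of 3 flasks of each line was sequenced as single reads of an Illumina NextSeq500. The authors trimmed reads with Trimmomatic 0.36, aligned them to Ensembl CanFam3.1 with STAR 2.5.3, and deposited expected counts and TPM per gene and lane from RSEM 1.3.0, without normalization between samples. Here, expected counts of 4 lanes were summed and rounded, and TPM were averaged. Multimapping reads are shared out by RSEM, so similar genes are uncertain.

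Adcarc1511.1 was tested against Adcarc1508 with edgeR 4.0.16 in R 4.3.3 (TMM, quasi-likelihood F test, Benjamini-Hochberg adjustment over 12517 genes). Standard errors were derived from the fold change and F. In simulated counts of 12356 genes for this comparison, 99.5% of 4-fold changes were recovered at a biological coefficient of variation of 0.1. At 0.3, over 12272 genes, 91.5% were recovered. Unchanged genes were called 0 times at 0.1 and 2 times at 0.3, and the data had a common value of 0.295. The simulation changed 200 genes, all 4-fold and with the same dispersion. It does not give the power for smaller folds or for genes of other dispersion. Log2 CPM for distances used a prior count of 2, and ratios between other lines added 0.25 CPM. Floors are 3 counts per library and intervals are exact binomial, counting error only. Deviations from the line mean correlated at 0.38, 0.33 and 0.22 between libraries of the same replicate number. These libraries were therefore treated as paired in the alternative with a replicate block, a pairing taken from the same data. The labels do not say whether a replicate number marks a shared day or batch. Replicate 1 had the lowest passage of each line (97 in Adcarc1508 and 88 in Adcarc1511.1).

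Symbols came from the study's tables, and genes without one were used by identifier. Named genes are the 10 highest and 10 lowest ratios of mean CPM (a line with at most 3 counts in every library set to a floor of 3 counts per library) among called, non-overlapping genes with 1 symbol, the members of 16 lists, and 2 identifiers, except some genes that are not reported here; counts over lists include all members. The comparison, members and lists were chosen with earlier results of these data known. Alternatives were DESeq2 1.42.0, RLE factors, no count filter, all 22 cell line libraries in 1 fit, the replicate block, other thresholds and each library left out.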

Additional observations from a re-analysis of the deposited data

How the results depend on the processing

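The number of called genes (1894) was 2623 with DESeq2, 1884 with RLE factors, 2736 with no count filter, 2517 with all 22 cell line libraries and 2488 with the replicate block, within 1.5 times in each case, and the block shared 1884 calls with the fit without it. Pairing by the block changed no call named in the text other than those of EPCAM, PERP, IRS1, ITGA2, ITGB6, SMAD3, LAMA3, STARD4, SPTSSB and NT5E. Against a fold of 2 with glmTreat, 975 genes were called (508 higher, 467 lower), and with an adjusted p of at most 0.05 and no fold, 3478 (1914 higher, 1564 lower). With 1 library left out, between 1285 and 1597 were called, between 669 and 943 higher and between 568 and 705 lower. Without the count filter, 54 list members were called in place of 33, over more genes tested. The ratio of median distances between and within lines (2.37) was 2.56 with a prior count of 0.5 and 5.75 over the 500 most variable genes. The shares of higher and lower genes with the same direction in the lines of other libraries (31.8% and 25.2%) were 37.1% and 38.7% with TCC0840 in place of Adcarc0846, 42.3% and 31.2% with Metadcarc1511.2 alone, and 34.1% and 28.5% with Metadcarc1511.3 alone. TCC0840 is a TCC line of another dog, at passages 350 and 352. As with Adcarc0846, its sample numbers are also carried by libraries of another cell line. It may thus have been sequenced apart from the metastasis lines too. The cause of these shifts was not tested. PLK1 was not called in the fit of all 22 libraries (adjusted p 0.0534). Of 48 called genes named in the text, 14 lost the call when some 1 library was left out, and none of the 19 chosen by ratio did. Genes under the count minimum, such as DLA-DRA, could not be tested at this depth.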

Other observations

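Replicate 1 of Adcarc1508, the flask of the lowest passage of that line, stood apart from replicates 2 and 3 in some genes. LAMB3, a laminin chain of epithelial basement membranes, had 1877 CPM in it and 484 and 319 CPM in the others, VEGFA, an angiogenic growth factor, 534 against 136 and 123 CPM, and IL20RB, a cytokine receptor chain, 17.5 against 0.212 and 0.207 CPM. TUBB4B, a tubulin, and CCNB1, a mitotic cyclin, were lowest in it, at 394 and 33.3 CPM against 1731 CPM in both others and 121 and 179 CPM. In Adcarc1511.1, replicate 1, also the lowest passage of its line, had the lowest level of TUBB4B (438 CPM, against 1137 and 906). CCNB1 hardly differed between its flasks (46.3, 48.8 and 53.7 CPM), and LAMB3 and VEGFA did not stand out in replicate 1. Summed over the 18 cell cycle genes, replicate 1 had 2542 CPM in Adcarc1508, against 4579 and 4643 CPM, and 2343 CPM in Adcarc1511.1, against 3683 and 2759 CPM. These are single flasks and were not tested.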
